A study of Sus scrofa domesticus with 4 samples.

Results

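Activin, inhibin, follistatin, bone morphogenetic protein and betaglycan genes were followed in the anterior pituitary of gilts in early pregnancy and in the estrous cycle. The 9 genes were INHA, INHBA, INHBB, BMP4, TGFB1, ACVR2B, TGFBR1, TGFBR3 and FST, and their probes were found through the RefSeq accession that the array gives each probe. This gave 13 of the 43603 probes, for 8 of the 9 genes, and no probe was matched to INHBB. Of these, 9 probes of 7 genes were bright enough to be tested, and the others are described without a test. Each of 4 2-colour arrays carried total RNA of 1 pregnant and 1 cyclic gilt, 8 gilts in all, every one a cross of Large White and Polish Landrace. The 4 pregnant gilts had been mated naturally and carried conceptuses, the 4 cyclic gilts were staged by their ovaries, and both groups were slaughtered on days 15 to 16. By the label fields of the samples, pregnant RNA was in Cy3 on arrays 1 and 3 and in Cy5 on arrays 2 and 4, whereas the labelling text names Cy3 for pregnant RNA throughout. The label fields were followed, and values under the other reading are given where they bear on a result.

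Activins are dimers of inhibin beta subunits that signal through a type II and a type I receptor to SMAD proteins, and in gonadotropes, the pituitary cells that make luteinizing and follicle-stimulating hormone, they promote synthesis of the FSH beta subunit. Inhibin pairs a beta subunit with the alpha subunit and opposes activin by occupying the type II receptors, a step that betaglycan, the coreceptor encoded by TGFBR3, strengthens. Follistatin, made within the gland, binds activin and keeps it from its receptors. Bone morphogenetic proteins and TGF-beta use related receptors, and BMP4 also acts on corticotrope and lactotrope cells.

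Across the 4 arrays, 50.4% to 60.4% of the pregnant spots and 52.5% to 66.5% of the cyclic spots were well above background, and 0 spots were saturated. No probe of 25138 passed limma's adjusted p of 0.05 (0 probes, smallest adjusted p = 0.125), with 2012 at an unadjusted p under 0.05. A looser rule asked for an unadjusted p under 0.05 and a difference of 1.2-fold or more. It took 7.84% of all tested probes, 841 higher and 1131 lower. Of these calls 42.6% were higher, against 21.2% with median centring in place of loess. The 5 gonadotrope markers and the 5 markers of other hormone cells were above background in all 8 channels. So was OXT, which encodes oxytocin, a hormone released from the posterior lobe, while AVP, vasopressin, was above background in 3 of 8 channels. In RNA of anterior pituitary tissue with its mixed cell types, fewer cells of a type and less RNA per cell cannot be told apart.

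TGFBR3 had the lowest p of the members and was lower in the pregnant gilt of every pair. The log2 ratios of pregnant over cyclic were -0.63, -0.14, -0.75 and -0.24 on arrays 1 to 4, so the deficit was deeper on arrays 1 and 3 than on arrays 2 and 4. The normalized log2 intensity of its probe was 7.61, 7.72, 7.95 and 7.004 in the 4 pregnant gilts and 8.24, 7.86, 8.70 and 7.24 in the cyclic gilts on the same arrays. The groups overlapped, because both gilts of array 4 were low and both gilts of array 3 were high, while each pregnant gilt lay below its own array partner. The mean difference was -0.44 ± 0.10 (SE of the limma fit, n = 4 arrays), a fold of 0.738, with a 95% interval from -0.69 to -0.19. This standard error comes from a fit with a gene-specific dye effect. It also draws on the variance of all tested probes, so it does not measure the spread of this probe alone. The plain spread of the 4 ratios was 0.29 (SD). The probe's red over green ratio averaged 0.25, and the arrays with the pregnant gilt in red were the ones nearer to 0.

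The TGFBR3 difference did not pass adjustment over all probes (limma unadjusted p = 0.00554, adjusted p = 0.605). It was the 1 of 9 tested member probes that met the looser rule, beside 7.84% of all tested probes. Its estimate was -0.47 without array 1, -0.46 without array 2, -0.41 without array 3 and -0.42 without array 4. With the 8 channels as separate samples the same difference had a limma unadjusted p of 0.206, and with pregnant RNA in Cy3 on every array it was -0.25 (limma unadjusted p = 0.258). The 5180 tested probes within 0.5 of its mean log2 intensity had median ratios of -0.04, -0.06, -0.010 and 0.0050 on arrays 1 to 4. The loess step centres ratios at each intensity, so medians near 0 were set by the normalization and say nothing further about TGFBR3.

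**Figure D1:**
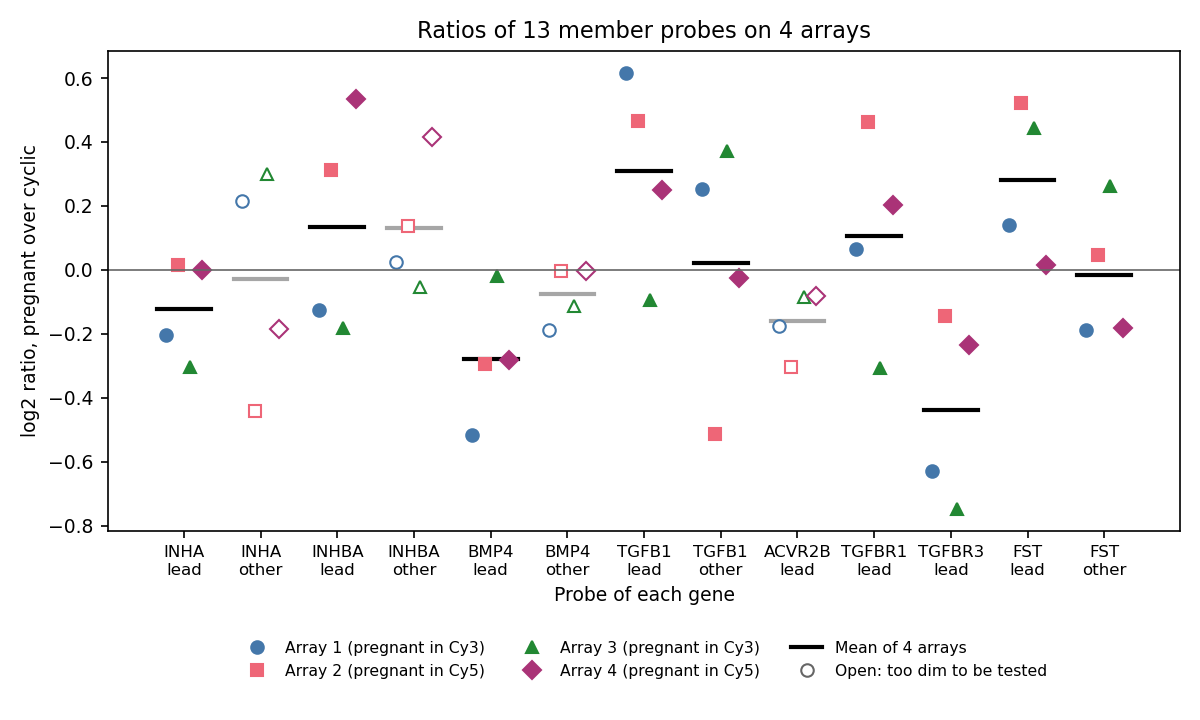
Log2 ratio of pregnant over cyclic for each of the 13 member probes on arrays 1 to 4, with a bar at the mean of the 4 arrays; open symbols are probes too dim to be tested. TGFBR3 lies below 0 on 4 of 4 arrays, from -0.75 to -0.14, whereas both probes of TGFB1 and the lead probe of INHBA have arrays on either side of 0.

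The genes whose 4 ratios lay closest to those of TGFBR3 were sought among 2399 other named genes by the root mean square difference over the 4 arrays. They were NTRK3, a neurotrophin receptor, at 0.15, PIGR, the polymeric immunoglobulin receptor, at 0.18, C3, complement component 3, at 0.18, SSTR2, a somatostatin receptor, at 0.19, and SPARC, a matricellular glycoprotein, at 0.19. Their red over green ratios averaged 0.23, 0.32, 0.20, 0.33 and 0.27 in that order, beside 0.25 for TGFBR3. Likeness over the 4 ratios thus takes in the dye effect as well. SPARC also stands in the stromal marker list, but it was picked here for its likeness to TGFBR3 and is no separate evidence. Beside it, COL1A2 stood at -0.44, DCN at -0.10 and LUM at -0.08. With SPARC included, the 4 tested genes of the 6 in that list were all below 0, with a median of -0.27. The summed intensity of those stromal markers ran from 13083 to 19184 in pregnant and from 16623 to 24575 in cyclic gilts. Their median by array was -0.92, 0.16, -0.27 and 0.0041, so it was above 0 on 2 of the arrays where TGFBR3 was below 0. Gonadotrope markers stood below 0 for 4 of 5 genes, with a median of -0.38 and medians of -0.54, -0.60, -0.19 and -0.12 on arrays 1 to 4. Their summed intensity ran from 328781 to 438997 in pregnant and from 372093 to 500087 in cyclic gilts. Markers of other hormone cells were also below 0 for 4 of 5 genes, with a median of -0.31. By array their medians were -0.55, 0.64, -0.84 and -0.08, so array 2 went the other way, unlike for gonadotrope markers. Both tested folliculostellate and both tested blood markers were below 0, with medians of -0.10 and -0.08. Posterior and intermediate lobe markers had 1 above and 1 below 0. The part of any cell type in the TGFBR3 difference was not tested.

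Endoglin, encoded by ENG, is the relative of betaglycan that binds TGF-beta and BMP ligands mainly on endothelium, and it was the other tested coreceptor. It was singled out after its values were seen. ENG stood at -0.41, -0.92, -0.22 and -0.04 on arrays 1 to 4, also below 0 on 4 of 4, with array 2 the lowest and array 4 near 0. Its estimate was -0.40 ± 0.17 (SE, n = 4 arrays), which did not pass (limma unadjusted p = 0.0592, adjusted p = 0.605). It was -0.18 without array 2 and -0.62 without array 4 (limma unadjusted p = 0.0076), and 0.08 under a single dye orientation. The endothelial markers PECAM1 and VWF stood at -0.19 and -0.24 and CDH5 at 0.51. The summed intensity of these 3 markers was between 4131 and 5472 in pregnant gilts and between 4066 and 7062 in cyclic gilts, and the part of endothelial cells was not tested.

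Follistatin gave different values from its 2 probes. The brighter FST probe had ratios of 0.14, 0.52, 0.44 and 0.017, above 0 on 4 of 4 arrays, with arrays 2 and 3 high and array 4 near 0. Its normalized log2 intensity was 7.32, 7.37, 7.57 and 7.60 in pregnant gilts and 7.18, 6.85, 7.13 and 7.58 in cyclic gilts. The cyclic gilt of array 4 reached the level of the highest pregnant gilts, so the groups overlapped. The estimate of this probe was 0.28 ± 0.13 (SE, n = 4 arrays), a fold of 1.21, with a 95% interval from -0.05 to 0.61, and it did not pass (limma unadjusted p = 0.0809, adjusted p = 0.606). With pregnant RNA in Cy3 on every array it was 0.011, without array 4 it was 0.41 and without array 2 it was 0.15. The other FST probe, nearly as bright, had ratios of -0.19, 0.05, 0.26 and -0.18, 2 above and 2 below 0. Its estimate was -0.016 ± 0.12 (SE, n = 4 arrays; limma adjusted p = 0.9753). The mean of both FST probes was 0.13 ± 0.13 (SE, n = 4 arrays; limma unadjusted p = 0.332).

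Among the ligand genes, BMP4 was lower and TGFB1 higher by their estimates, and neither passed. The brighter BMP4 probe had ratios of -0.52, -0.29, -0.019 and -0.28, below 0 on 4 of 4 arrays with array 3 near 0. Its normalized log2 intensity was 7.03, 7.01, 6.85 and 6.89 in pregnant gilts and 7.55, 7.31, 6.87 and 7.18 in cyclic gilts. The pregnant gilts spanned a narrow range that the cyclic gilt of array 3 shared, while the other 3 cyclic gilts lay above every pregnant gilt. The BMP4 estimate was -0.28 ± 0.12 (SE, n = 4 arrays), a fold of 0.825 with a 95% interval from -0.59 to 0.03 (limma unadjusted p = 0.0678, adjusted p = 0.605). It was -0.15 without array 1, -0.40 without array 3, -0.58 from the scanner software's processed signals, -0.08 with background parameters from all spots and 0.010 under a single dye orientation. The dimmer BMP4 probe was not well above background in any of the 4 pregnant channels and was so in 2 of the 4 cyclic ones. Its ratios were -0.19, -0.0021, -0.11 and -0.0019, so arrays 2 and 4 were near 0.

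TGFB1, a cytokine of immune and stromal cells, was measured with 2 probes that disagreed. The brighter probe stood at 0.62, 0.47, -0.09 and 0.25 on arrays 1 to 4, so array 3 went the other way. Its normalized log2 intensity was 9.55, 9.23, 8.98 and 9.11 in pregnant and 8.93, 8.76, 9.08 and 8.85 in cyclic gilts. Of the pregnant gilts 3 lay above all 4 cyclic gilts, and the pregnant gilt of array 3 lay below its partner. The estimate was 0.31 ± 0.15 (SE, n = 4 arrays), a fold of 1.24 with a 95% interval from -0.06 to 0.68 (limma unadjusted p = 0.0852, adjusted p = 0.610). It was 0.49 without array 3, 0.13 without array 1, 0.12 when all spots set the background parameters and -0.05 under a single dye orientation. The other TGFB1 probe had ratios of 0.25, -0.51, 0.37 and -0.02, positive where the pregnant gilt was in Cy3 and negative where it was in Cy5. Its estimate was 0.022 ± 0.12 (SE, n = 4 arrays, limma adjusted p = 0.966). Under a single dye orientation that probe was at 0.29 (limma unadjusted p = 0.0445, adjusted p = 0.545).

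The inhibin subunits showed no difference that this design could separate from 0. INHBA, the beta A subunit of activin A and inhibin A, had ratios of -0.13, 0.31, -0.18 and 0.54, positive where the pregnant gilt was in Cy5 and negative where it was in Cy3. Its red over green ratio averaged 0.29, the highest of the tested member probes, and the other TGFB1 probe lay as far from 0 at -0.29. The INHBA level was 11.24, 11.25, 10.73 and 11.24 in pregnant gilts and 11.37, 10.94, 10.91 and 10.701 in cyclic gilts on the normalized log2 scale. The 3 pregnant gilts of arrays 1, 2 and 4 were close together, and the cyclic gilt of array 1 was the highest of the 8. The estimate was 0.14 ± 0.10 (SE, n = 4 arrays), with a 95% interval from -0.12 to 0.39 (limma unadjusted p = 0.241, adjusted p = 0.690). Under a single dye orientation it was -0.29 (limma unadjusted p = 0.0389, adjusted p = 0.539). The other INHBA probe was not well above background in any of the 8 channels. INHA, the alpha subunit specific to inhibin, had ratios of -0.20, 0.016, -0.30 and 0.0011, with arrays 1 and 3 below 0 and arrays 2 and 4 near it. Its level was 6.88, 7.14, 6.92 and 7.19 in pregnant and 7.08, 7.13, 7.22 and 7.19 in cyclic gilts, so the cyclic gilts kept a range that the pregnant gilts of arrays 1 and 3 fell short of. Its estimate was -0.12 ± 0.10 (SE, n = 4 arrays), with a 95% interval from -0.37 to 0.12 (limma unadjusted p = 0.262, adjusted p = 0.708). The pregnant channel of INHA was above background on 3 of 4 arrays. The dimmer INHA probe was above background in 0 of 4 pregnant and 2 of 4 cyclic channels. Its ratios were 0.22, -0.44, 0.30 and -0.19, 2 above and 2 below 0.

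**Figure D2:**
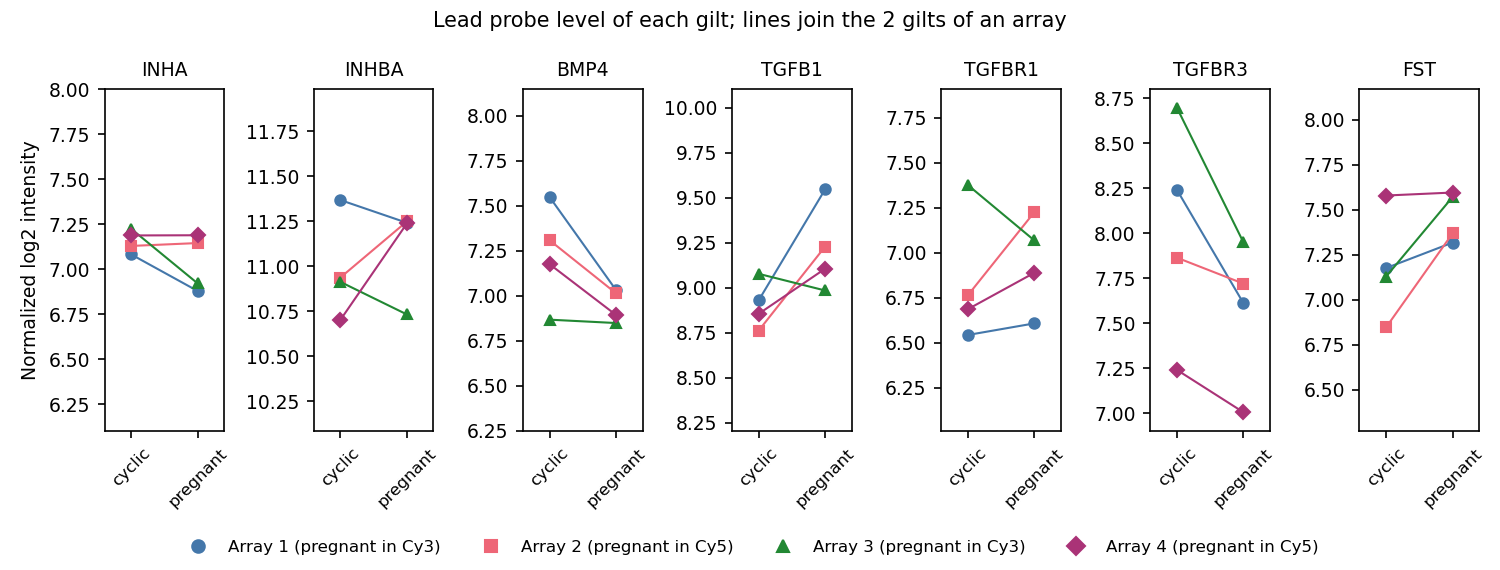
Normalized log2 intensity of the lead probe of each tested member in the 8 gilts; a line joins the cyclic and the pregnant gilt of 1 array, and every panel spans the same number of log2 units, with its own origin. All 4 lines of TGFBR3 and of BMP4 fall and all 4 lines of FST rise, while those of INHBA, TGFBR1 and TGFB1 go both ways.

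The 2 signalling receptors among the members were dim. TGFBR1, the type I receptor of TGF-beta, had ratios of 0.06, 0.46, -0.31 and 0.20 and was above background in 3 of 4 channels of each group. Its level ran from 6.61 to 7.22 in pregnant and from 6.54 to 7.38 in cyclic gilts, and array 3 held the highest cyclic gilt. The estimate was 0.11 ± 0.12 (SE, n = 4 arrays), with a 95% interval from -0.19 to 0.40 (limma unadjusted p = 0.412, adjusted p = 0.794). It turned to -0.06 with background parameters from all spots and to -0.23 under a single dye orientation. ACVR2B, a type II receptor that binds activin and inhibin, was above background in 1 of 4 pregnant and 2 of 4 cyclic channels and was not tested. Its ratios were -0.18, -0.30, -0.08 and -0.08, below 0 on 4 of 4 arrays, with a mean of -0.16 ± 0.10 (SD, n = 4).

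Read together, 3 of the 9 tested member probes, those of TGFBR3, BMP4 and FST, had 1 sign on all 4 arrays, beside 14.6% of all tested probes. The pregnant and cyclic levels overlapped for all 13 member probes, and 2.14% of all tested probes had groups that did not overlap. Among 2912 further probes of 1191 named genes with over 1 tested probe, 76.4% shared the sign of the gene's brightest probe, with a median absolute difference of 0.08. The 2 FST probes differed by 0.30 and the 2 TGFB1 probes by 0.29, and 8.69% and 9.17% of those further probes differed from the brightest probe by at least as much.

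The wider signalling pathway was read from a list of 85 genes, of which 44 had a named probe and 39 were tested, each by its brightest probe. Of these 39 genes 13 had an estimate above 0 and 26 below 0, with a median of -0.05, beside -0.0096 over all tested probes. Of all 2406 named genes, 1170 were above and 1236 below 0 by their brightest probe. At a limma unadjusted p under 0.05 the list held 1 gene, TGFBR3, lower in pregnancy, beside 4.90% of all named genes on that side. It held 0 genes on the higher side, beside 3.82%. That count of 1 depended on the arrays and the fit: it was 3 without array 1, 1 without array 2, 6 without array 3 and 7 without array 4. It was 7 in the paired fit of separate channels and 0 with the 8 channels unpaired. Over all 25138 tested probes the count at that p moved too, from 2012 to 918, 958, 2311 and 3235 without arrays 1, 2, 3 and 4. For all probes it was 3570 in the paired fit and 853 unpaired. The 2 counts did not always move alike: without array 1 the pathway count rose to 3 while that of all probes fell to 918. Whether the moves are particular to the listed genes was not tested. The list's median by array was -0.13, 0.08, -0.09 and -0.03, so array 2 went the other way. Its split ran from 10 above and 29 below 0 with median centring to 18 above and 21 below 0 without array 4.

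Of the 14 tested ligand genes 6 had an estimate above 0 and 8 below 0, and BMP4 had the lowest p. TGFB3, a TGF-beta isoform singled out after its values were seen, had ratios of 0.16, 0.64, 0.69 and -0.23, below 0 on array 4 alone. Its estimate of 0.31 ± 0.18 did not pass (SE, n = 4 arrays; limma unadjusted p = 0.141). It was 0.096 without array 2, 0.18 without array 3, 0.53 without array 4 and 0.17 as the mean of its probes. Of the 7 tested receptor genes 3 were above 0. BMPR1B, a type I receptor of bone morphogenetic proteins, had the lowest p among them at -0.51 ± 0.23 (SE, n = 4 arrays; limma unadjusted p = 0.0739). Its ratios were -0.28, -0.38, -1.56 and 0.18, so array 3 carried most of the difference, and the estimate was -0.19 without array 3 and -0.83 without array 1 (limma unadjusted p = 0.0038). ACVR2A, the other activin type II receptor, also named after its values were seen, stood at 0.17 ± 0.12 (SE, n = 4 arrays), with ratios of 0.39, 0.29, 0.12 and -0.14, and it lay between 0.057 and 0.27 with 1 array left out.

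The 4 tested SMAD transducers, SMAD1, SMAD2, SMAD3 and SMAD4, lay between -0.07 and -0.012, with SMAD3, which carries activin and TGF-beta signals, at -0.07 ± 0.10 (SE, n = 4 arrays; limma unadjusted p = 0.513). Of the inhibitors, FKBP1A, the immunophilin that holds type I receptors inactive, stood at -0.35 ± 0.17 (SE, n = 4 arrays; limma unadjusted p = 0.0931). Its array 4 ratio was 0.36 against -0.73, -0.57 and -0.48 on the other 3 arrays, and 3 of its 4 other probes had its sign. The FKBP1A estimate was -0.12 without array 2 and -0.59 without array 4 (limma unadjusted p = 0.0103), and -0.24 as the mean of its probes. THBS1, a thrombospondin that activates latent TGF-beta, stood at -0.32 ± 0.16 (SE, n = 4 arrays; limma unadjusted p = 0.0927), from -1.25 on array 1 to 0.60 on array 4. It was -0.17 without array 1, -0.18 without array 2, -0.47 without array 3 (limma unadjusted p = 0.0450) and -0.19 as the mean of its probes.

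Target genes of activin in the gonadotrope did not move as 1 group. GNRHR, the receptor of gonadotropin-releasing hormone, had the lowest p of the 7 tested targets at -0.65 ± 0.29 (SE, n = 4 arrays; limma unadjusted p = 0.0707). Its ratios were -1.18 and -1.41 on arrays 1 and 2 and 0.012 and -0.03 on arrays 3 and 4, and its other probe had the same sign. The GNRHR estimate was -0.35 without array 1, -0.31 without array 2, -0.95 without array 3 (limma unadjusted p = 0.0156) and -0.996 without array 4 (limma unadjusted p = 0.0197). Under a single dye orientation it was 0.07. FSHB, the FSH beta subunit, singled out after its values were seen, had ratios of -0.38, 0.35, 2.53 and -0.84. Its estimate of 0.42 ± 0.48 (SE, n = 4 arrays; limma unadjusted p = 0.428) was -0.31 without array 3 and 1.14 without array 1 (limma unadjusted p = 0.0044). On array 3 the FSHB level was 15.58 in the pregnant gilt and 13.05 in the cyclic gilt. The cyclic gilts of arrays 1, 2 and 4 were at 15.04, 14.81 and 15.87, so the ratio of array 3 came largely from a low cyclic gilt. TGFBR3 had its lowest ratio on that array and the FST lead probe stood at 0.44, a match seen afterwards on 1 array. A link of FSHB to either gene was not tested. ID1, ID2 and ID3, targets of BMP signalling, stood at 0.14, 0.19 and -0.014, and none of them was at a limma unadjusted p under 0.05.

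**Figure D3:**
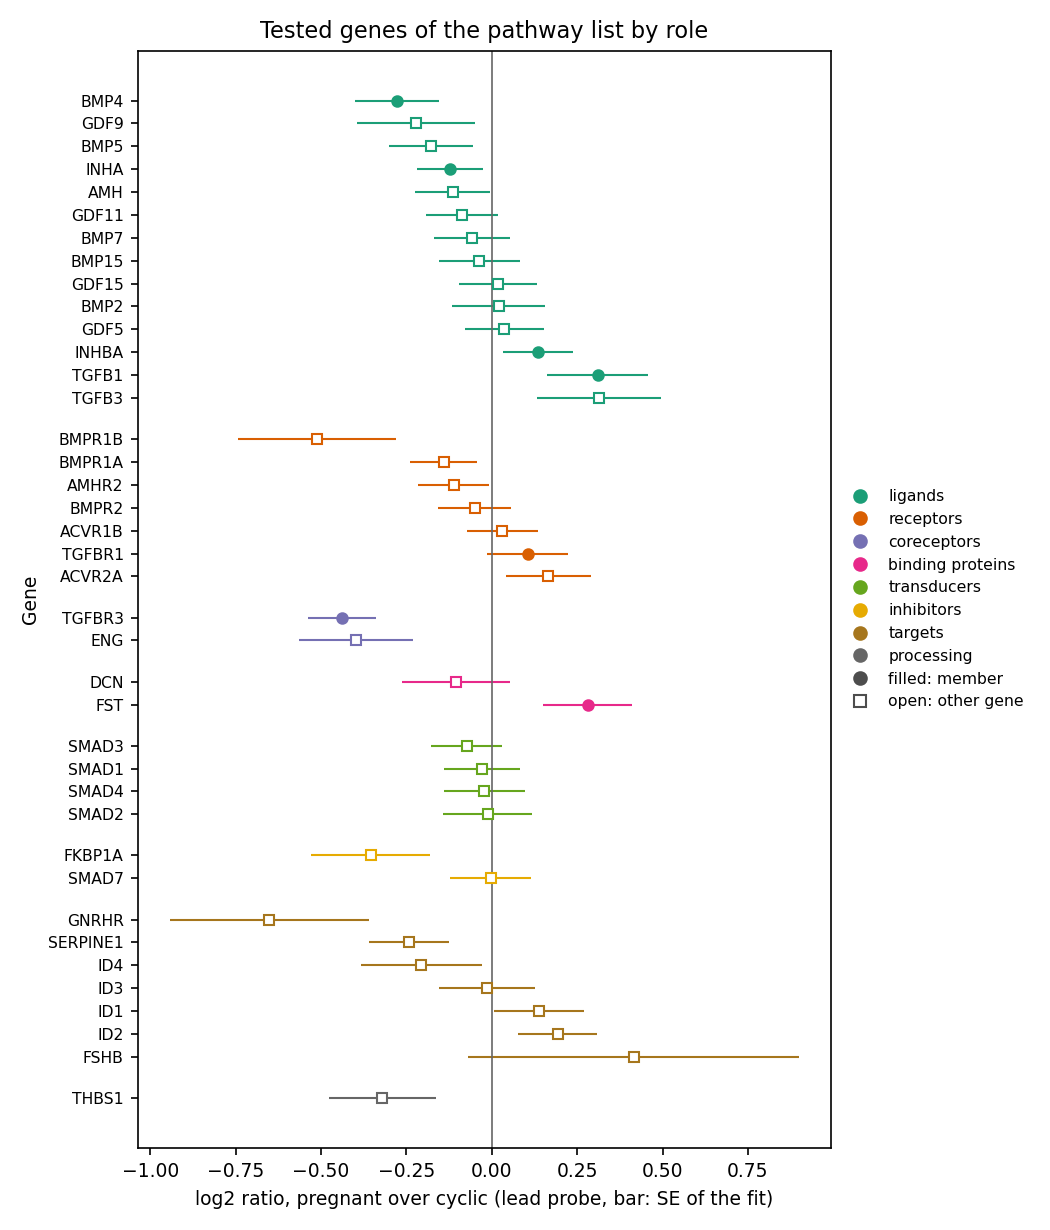
Estimated log2 ratio of pregnant over cyclic with the SE of the limma fit (n = 4 arrays) for the 39 tested genes of the pathway list, grouped by role; filled circles are the members. TGFBR3 at -0.44 and ENG at -0.40 form the coreceptor group, and the 4 SMAD transducers lie within 0.10 of 0.

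**Figure D4:**
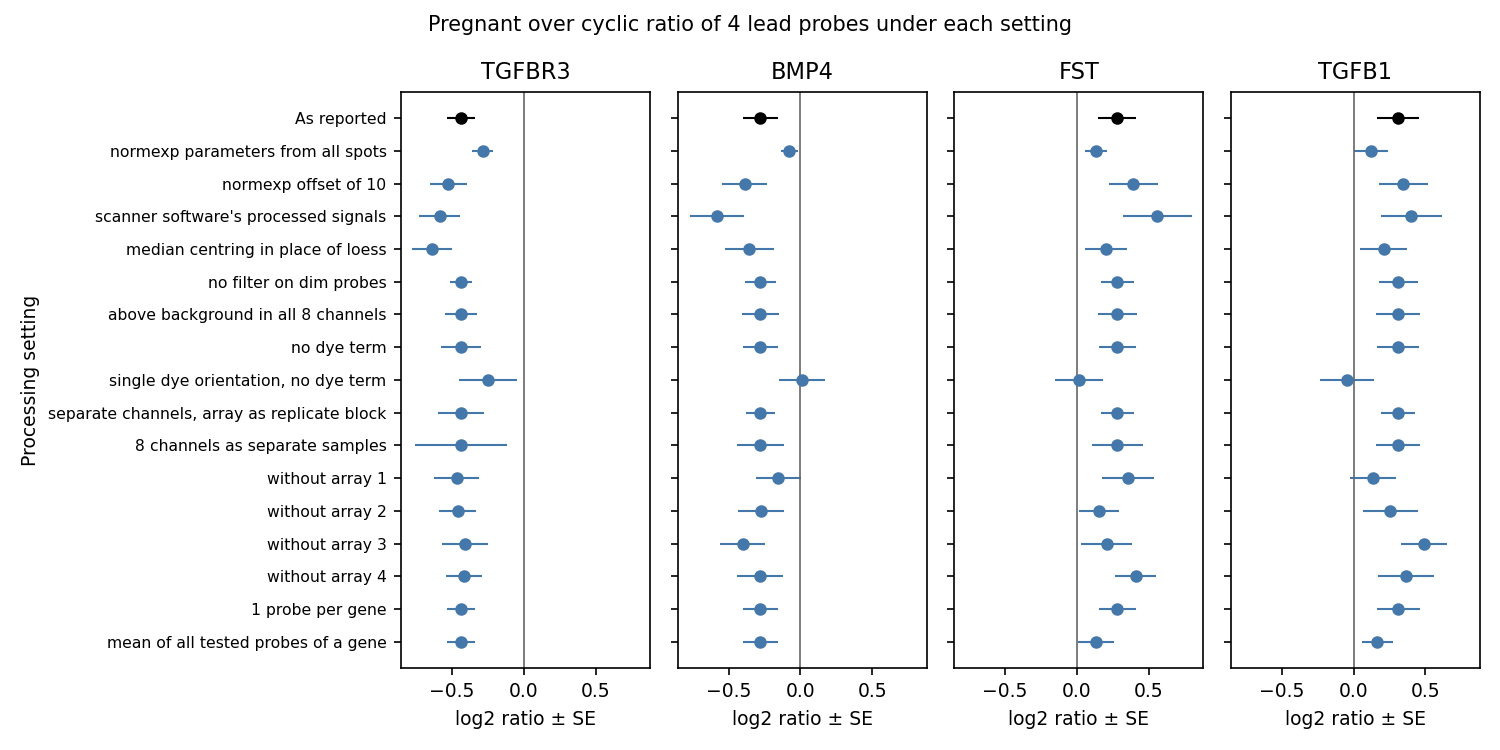
Estimated log2 ratio of pregnant over cyclic with its SE for the lead probes of TGFBR3, BMP4, FST and TGFB1 under the reported processing (black) and 16 other settings (blue). TGFBR3 stays below 0 throughout, from -0.64 to -0.25, and BMP4 and TGFB1 cross 0 under a single dye orientation. Settings of the filter, the pairing, no dye term and 1 probe per gene change only the SE.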

How the data were processed

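Scanner files from Agilent Feature Extraction 10.7.3.1, as deposited, hold median foreground and background intensity and processed signals per spot, per the file headers. A table of log2 ratios by the authors was set against them. For 43553 probes spotted once they equalled log2 of processed red over green within 0.001, turned to pregnant over cyclic by the label fields, with column medians of 0.150, -0.010, 0.065 and -0.073. Its further centring is not given in the sources used here.

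In R 4.3.3 with limma 3.58.1, background was corrected by normexp (offset 50, parameters without spots marked as outliers) and ratios by loess within arrays (span 0.3, control spots at weight 0). The offset draws ratios of dim probes towards 0. Probes needed values on 4 arrays and signal well above background in 4 of 8 channels. lmFit and eBayes estimated the pregnant effect beside a dye effect, with Benjamini-Hochberg adjustment over 25138 probes. Each array pairs 1 gilt of each group, and its channels had a consensus correlation of 0.628. Levels are channel intensities after Aquantile normalization. A lead probe is a gene's brightest. Of the pathway list, genes at an unadjusted p under 0.05 or with the lowest p of their role are named, and others as chosen later. RefSeq names of the Sscrofa11.1 assembly gave 6700 probes a symbol. Members and lists were chosen with earlier results of these data known. The fit was tested on simulated data. Alternatives covered background, normalization, filter, dye, pairing, left-out arrays and probe choice.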

Additional observations from a re-analysis of the deposited data

How the results depend on the processing

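TGFBR3, INHA and the lead probe of FST kept their sign under every alternative run on them, 16, 15 and 16 settings. Many of these settings could not turn a sign. Changing the filter or the pairing, dropping the dye term or taking 1 probe per gene left the estimates as they were (-0.44 for TGFBR3). Leaving out 1 array could not turn TGFBR3 or the lead probe of FST, whose ratios had 1 sign on all 4 arrays. No member passed the adjusted threshold under any setting (lowest limma adjusted p = 0.294, for TGFBR3). The count of probes past that threshold was 3 with an offset of 10, 4 from separate channels with the array as a replicate block, 1 with 8 channels unpaired, and 0 to 7 with 1 array left out (7 without array 1). The looser count of 1972 was 761 with background parameters from all spots, 851 with the 8 channels unpaired, and 918 to 3235 with 1 array left out (918 without array 1, 958 without array 2 and 3235 without array 4). Without array 2 the balance turned to 570 higher and 388 lower. In the paired fit of separate channels TGFBR3 was -0.44 (limma unadjusted p = 0.0230).

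With pregnant RNA in Cy3 on every array, signs turned for TGFBR1 (-0.23), TGFB1 (-0.048), INHBA (-0.29), BMP4 (0.010), the other FST probe (0.052), GNRHR (0.070) and ENG (0.082). That follows from turning arrays 2 and 4. With background parameters from all spots TGFBR1 was -0.061 and the other FST probe 0.041, which was also 0.060 from processed signals. The other TGFB1 probe was -0.11 with median centring. With 1 array left out, the other FST probe ranged from -0.13 to 0.10, the other TGFB1 probe from -0.10 to 0.14 and FSHB from -0.31 to 1.14. For the other turned values the cause was not tested. TGFBR1, ACVR2B and INHA were not above background in every channel, which limits their ratios.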
